A study of Mus musculus with 140 samples.

Results

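The active zone is the patch of presynaptic membrane where synaptic vesicles dock and fuse. The 8 genes described here encode its core scaffold: Rims1 and Rims2 (RIM proteins), Bsn and Pclo (Bassoon and Piccolo), Erc1 and Erc2 (ELKS proteins), and Ppfia2 and Ppfia3 (liprin-alpha proteins). They are 8 of the 55450 genes of the GENCODE vM21 annotation on the mouse mm10 genome. A cluster, which is a stretch of transcript where immunoprecipitated reads pile up, was given to a gene when its midpoint and strand fell within it. The 8 genes then held 30335 of the 13239113 clusters listed in 70 enhanced crosslinking and immunoprecipitation (eCLIP) libraries. Of the 3578924 clusters called enriched, 12925 lay in them. Enriched means here that the deposited −log10 p of the immunoprecipitate (IP) against its input was 3 or more.

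R6/2 mice carry a transgene for exon 1 of human mutant huntingtin with an expanded CAG repeat, a model of Huntington's disease. TDP-43 eCLIP and m6A eCLIP had been carried out on striatum and cortex of R6/2 and non-transgenic (NT) mice at 3 months of age. Each assay, region and genotype had 8 IP libraries, from 4 males and 4 females, and these mice had received no treatment. A separate m6A experiment compared 3 male C57Bl/6J mice dosed at 5 weeks into the ventricle with 500 µg of an ASO (antisense oligonucleotide) that targets TDP-43 with 3 given PBS. That tissue was collected 2 weeks later, and the samples are titled 2 months. The sample labels of this experiment say cortex, whereas the treatment text names striatum, so its region is given here as labelled. R6/2 mice express only a fragment of huntingtin from a transgene, in whole tissue of mixed cell types. Input libraries enter each list through its 2 values per cluster.

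RIM proteins hold calcium channels and vesicles together at the release site, and Bassoon and Piccolo are giant scaffolds that span the active zone. ELKS proteins bind RIM and the giant scaffolds, and liprins link them to receptor tyrosine phosphatases. TDP-43 is a mostly nuclear RNA-binding protein that prefers UG-rich RNA and is best known for holding back cryptic exons in long introns. N6-methyladenosine (m6A) is laid down by METTL3 with METTL14 at short motifs of the DRACH type, of which GGACU is the best known, often in long exons and around stop codons.

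The members were chosen with results of these data known. Rims1 was selected on a TDP-43 cluster in one of its introns that was enriched in NT and not in R6/2 mice, so its TDP-43 values in R6/2 against NT are given as a description with no test. Counts of called members in those contrasts are over the other 7 genes.

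TDP-43 libraries differed in yield. In striatum, NT libraries held 4929 to 24127 enriched clusters and R6/2 libraries 6768 to 24430, and in cortex 28911 to 54931 and 15803 to 44115. The intronic share of listed clusters was 16.1% to 25.8% in striatal NT and 18.8% to 47.5% in striatal R6/2 libraries, and 5 of the latter, all 4 females and male 4, lay at 30% or more. The m6A libraries of the R6/2 study held 56398 to 86900 enriched clusters. Markers moved with region and genotype: the 10 genes fixed for striatal projection neurons summed to 38.9 to 54.7 scaled TDP-43 clusters in R6/2 striatum against 86.7 to 189 in NT, and 7 of 9 tested were called lower. In cortex the sums were 2.18 to 8.45 against 22.2 to 33.5, with 4 of 4 tested called lower. The m6A sums were 115 to 132 against 190 to 230 in striatum and 33.8 to 50.1 against 62.7 to 74.3 in cortex. Astrocyte markers were called lower for m6A in R6/2 at 2 of 5 tested in striatum (sums of 84.3 to 95.2 against 96.3 to 109.8) and 1 of 5 in cortex (74.3 to 91.5 against 85.7 to 102.6). In NT mice all tested markers of striatal projection neurons were called higher in striatum than in cortex, 7 of 7 for TDP-43 and 10 of 10 for m6A. The part of these markers in the results for the 8 genes was not tested. Markers of microglia and of vessels had no enriched TDP-43 cluster in any of the R6/2 or NT libraries. In such bulk tissue, fewer cells of a type and less RNA per cell cannot be told apart.

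The Rims1 intronic cluster is shown first, because the gene was chosen by it. It lies at chr1:22390534-22390625 (mm10, minus strand, 92 bases) in an intron of 17910 bases. The nearest exon before it in the transcript is 6825 bases away and the next one after it 10993 bases. Of the 9 annotated Rims1 transcripts, 6 span it and 0 exons overlap it. The cluster covers nearly exactly a stretch of 87 bases that has AG directly before it and GT directly after it, as internal exons do. The 2 edges of the cluster in the RefSeq GRCm38 sequence, each as 30 bases of the transcribed strand with that AG or GT in capitals, are shown for this reason.
Rims1 intron, edge that comes first in the transcript, chr1:22390613-22390642: tgctacatttcttggacAGttttaaagagc
Rims1 intron, edge that comes last in the transcript, chr1:22390516-22390545: gacttcaagGTgagaaaaatgttattgtca
The outer edges of what was listed there, as 2 clusters in 3 NT libraries and as 1 in the others, lay within 4 bases of the ends of that stretch in 16 of 16 NT libraries. The 4 bases are the largest deviation of any NT library, so that count follows from the tolerance. By the same tolerance 3 of the 15 R6/2 libraries that list a cluster there matched the stretch. That tolerance was set by the NT libraries, so these counts do not compare the genotypes. Some R6/2 clusters missed it narrowly, such as chr1:22390532-22390624 in cortical R6/2 female 3. No annotated Rims1 transcript holds the stretch as an exon. TGTGT, a UG repeat of the kind TDP-43 prefers, did not occur on the transcribed strand of the site. Neither did GGACT, the only m6A motif searched there. The nearest TGTGT was 113 bases away. These letters are a description of the window and say nothing of how it is used.

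At this site every NT library held an enriched TDP-43 cluster and no R6/2 library did, in striatum (8 of 8 against 0 of 8) and in cortex (8 of 8 against 0 of 8). In striatum the −log10 p had a lowest, median and highest value of 3.05, 8.20 and 13.0 in NT, and of 0, 0.561 and 1.16 in the 7 R6/2 libraries with a listed cluster. R6/2 female 4 had none listed. In cortex the same values were 6.96, 10.7 and 19.4 in NT and 0, 1.07 and 2.10 in R6/2. The groups did not overlap in either region, and the libraries nearest to the threshold were an NT library at 3.05 and an R6/2 library at 2.1.

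The log2 fold of IP over input separated the genotypes less sharply. In striatum it ran from 2.18 through a median of 3.94 to 4.78 in NT (mean 3.84 ± 0.804, SD, n = 8), and from 0.210 through 1.88 to 2.03 in R6/2 (1.38 ± 0.739, SD, n = 7). In cortex the NT range was 2.65 to 3.90 with a median of 3.34 (3.40 ± 0.422, SD, n = 8), and the R6/2 range 0.215 to 3.27 with a median of 2.11 (1.80 ± 1.11, SD, n = 8). The cortical folds overlapped, and a cluster was still listed there in all 8 R6/2 cortical libraries. Of all TDP-43 sites, 0.0485% in striatum (9 of 18561) and 0.0646% in cortex (24 of 37173) were enriched in all 8 libraries of one genotype and in 0 of the other. Nothing is read from that count for Rims1, which was picked for it.

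**Figure D1:**
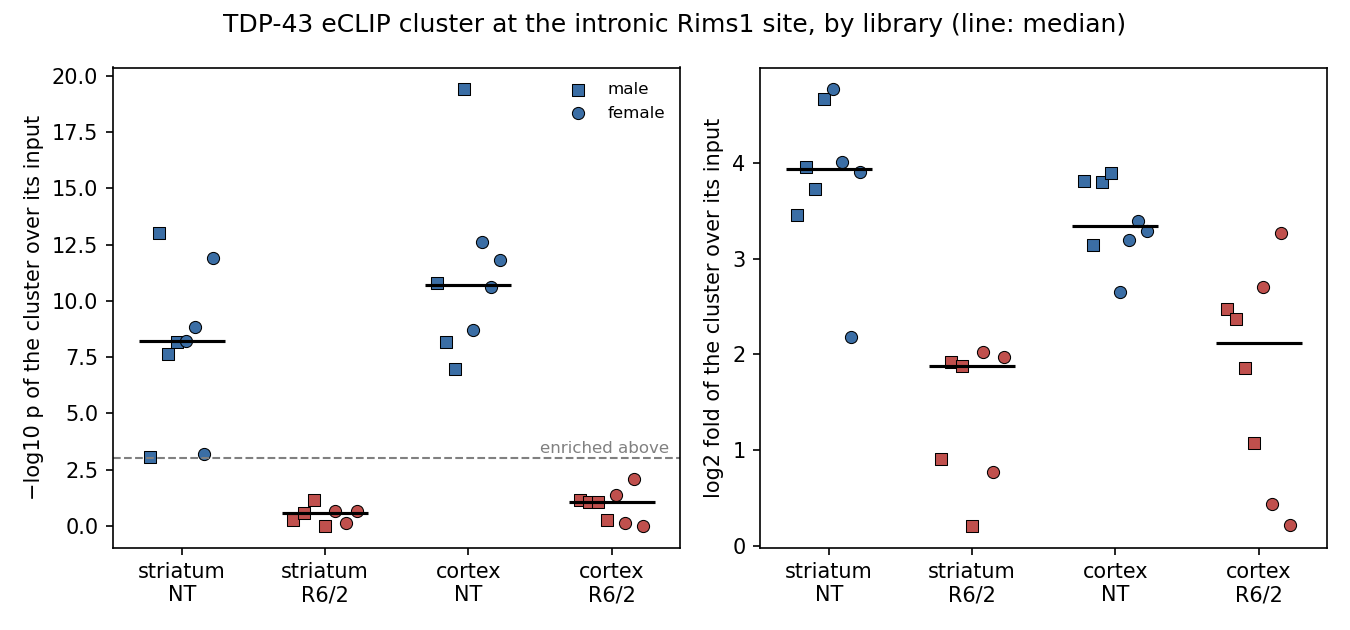
TDP-43 at the intronic Rims1 site, by library: −log10 p of IP against input (one panel) and log2 fold of IP over input (the other) in striatum and cortex of NT and R6/2 mice. Squares are males, circles females, the line is the group median and the dashed line marks a −log10 p of 3; all 16 NT libraries lie above it and all 15 R6/2 libraries with a listed cluster lie below it.

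The rest of that intron held no enriched cluster. Elsewhere in it, 64 TDP-43 clusters were listed over the 32 libraries, in 29 of them, and 0 were enriched, the highest −log10 p being 1.98. The m6A libraries never held an enriched cluster at the site. They listed one in 3 of 3 PBS libraries, each at a −log10 p of 0, and in 0 of 3 ASO libraries. Listed intervals of the ASO experiment were the same in all libraries of a treatment, so these counts are not of separate calls. Outside that experiment, 1 library each of NT striatum, R6/2 striatum and NT cortex listed one.

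Coding exons near the intron carried TDP-43 clusters as well. The exon that follows held a site at chr1:22379440-22379545 in striatum, enriched in 8 of 8 NT and 6 of 8 R6/2 libraries, with a log2 fold of 3.96 ± 0.755 in NT and 2.22 ± 0.544 in R6/2 (SD, n = 8 each). In cortex it was enriched in all 16 libraries, at 3.20 ± 0.233 in NT and 2.43 ± 0.617 in R6/2. The exon before the intron held a cortical site at chr1:22397516-22397562, enriched in 8 NT and 4 R6/2 libraries, at 2.19 ± 0.255 and 1.60 ± 0.563. In striatum that exon held no site, and the nearest one on that side lay in another exon, at chr1:22428543-22428622, enriched in 6 NT and 5 R6/2 libraries (2.22 ± 0.592 and 2.06 ± 0.536).

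Most TDP-43 sites in these genes were exonic. A site here is a stretch covered by enriched clusters of at least 4 libraries of a comparison (3 in the ASO experiment). The 8 genes had 122 sites in striatum, of which 109 (89.3%) lay in coding sequence, 5 in 3′ untranslated regions and 4 in introns. Over all genes, 53.2% of 18551 striatal sites were coding and 35.4% were in 3′ untranslated regions. Cortex had 243 sites in the 8 genes, 86.0% of them coding, against 54.9% of 37142 over all genes. The intronic ones other than that of Rims1 lay in Bsn (3 in each region, at chr9:108108735-108108939, chr9:108108958-108109028 and chr9:108109054-108109144 in striatum, 548 to 771 bases from an exon) and in Erc2 (2 in cortex).

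TGTGT was scarce in these sites. It was searched on the transcribed strand in the middle 51 bases of each site and occurred in 1 of 122 striatal member sites (0.82%) and 9 of 243 cortical ones (3.70%), against 7.16% and 7.34% of the sites of all genes. The striatal one lay in Rims1. These shares were not matched for class, and member sites were more often coding than those of all genes. Shown are, for Rims1 in striatum and for Bsn and Ppfia3 in cortex, the site of highest NT fold among those enriched in all 16 libraries. The Rims1 one holds a TGTGT, in capitals, beyond its middle bases, and the others hold none.
Rims1 coding site, chr1:22346320-22346349: aagtggtagccatTGTGTctcgaagaagca
Bsn coding site, chr9:108103959-108103988: tcctccctggtggggcagcagaacaagctg
Ppfia3 coding site, chr7:45359289-45359318: attggagagggtagcagtgctggaggagga
The log2 folds over input at these sites were 4.14 ± 0.894 in striatal NT libraries for Rims1, and 5.48 ± 0.860 and 4.75 ± 0.735 in cortical NT libraries for Bsn and Ppfia3 (SD, n = 8 each). In R6/2 they were 3.56 ± 0.467, 4.31 ± 0.913 and 3.84 ± 0.721.

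Per kilobase of exon, Rims1 had the most enriched TDP-43 clusters of the 8 genes in NT cortex, at 5.76 ± 0.538 (SD, n = 8). Ppfia3 followed at 5.00 ± 0.262 and Bsn at 4.29 ± 0.393. Pclo (2.98 ± 0.212), Erc2 (2.62 ± 0.648) and Rims2 (2.56 ± 0.651) lay close together within their spread, above Ppfia2 (1.66 ± 0.710) and Erc1 (0.522 ± 0.215). Rims1 held 36 to 48 enriched clusters per library there (median 43) and Erc1 4 to 13 (median 8.5). With touching clusters joined, the medians were 28.5 for Rims1, with 7.36 kb of exon, and 32 for Ppfia3, with 7.90 kb. The order of Rims1 and Ppfia3 therefore depends on whether touching clusters are joined. The m6A order in NT cortex was another one, led by Bsn at 4.29 ± 1.31 enriched clusters per kilobase of exon and Pclo at 2.29 ± 0.722, with Rims2 at 1.77 ± 0.277, Erc2 at 1.43 ± 0.229 and Erc1 at 1.17 ± 0.139. Rims1 (0.645 ± 0.158) and Ppfia3 (0.538 ± 0.0895), the 2 highest for TDP-43, were near the end of the m6A order, above Ppfia2 at 0.149 ± 0.0840. Rims1 and Ppfia3 did not differ beyond their spread there.

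TDP-43 and m6A sites met in part. Counting an overlap of at least 1 base, in cortex 65 of 243 member TDP-43 sites (26.7%) touched an m6A site and 50 of 89 m6A sites (56.2%) touched a TDP-43 site, against 21.8% and 16.5% over all genes. In striatum the shares were 22.1% and 29.2%, against 23.5% and 8.77%. Pclo had the most of these among the members, with 23 of its 45 cortical TDP-43 sites on an m6A site, while Ppfia2 had 0 of 19. These shares are counts over sites, which share libraries and transcripts, and were not tested. They were not matched for class, and member sites of both assays were more often coding than those of all genes.

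In NT mice, TDP-43 clusters of 7 of the 8 genes were fewer in striatum than in cortex. Numbers of enriched clusters per gene were divided by a median-ratio size factor of each library (scaled clusters), and log2(scaled clusters + 0.5) was tested with limma with sex as a covariate, with Benjamini-Hochberg adjustment over all genes tested. At an adjusted p under 0.05, 52.1% of 3121 genes were called in this comparison, 43% as lower and 9.07% as higher, and the median gene moved by −0.66 on the log2 scale. Erc2 had 3.66 to 10.4 scaled clusters in striatum (median 8.47) and 13.7 to 25.1 in cortex (median 18.3), which did not overlap, a log2 change of −1.18 ± 0.19 (SE, limma adjusted p = 8.26e-05). Ppfia2 fell by 2.85 ± 0.43 (SE, limma adjusted p = 5.25e-05), from 6.37 to 19.8 in cortex to 0 to 5.00 in striatum. Rims2 (−0.64, limma adjusted p = 0.000111), Bsn (−0.61, limma adjusted p = 0.00112) and Erc1 (−1.48, limma adjusted p = 0.00262) were called lower too. Pclo (−0.46, limma adjusted p = 0.0397) and Ppfia3 (−1.43, limma adjusted p = 0.0496) were near the threshold. Without striatal NT male 1, the library of lowest yield, Bsn stood at −0.30 (limma adjusted p = 0.0354), Ppfia3 at −0.59 (limma adjusted p = 0.0132) and Pclo at −0.12 (limma adjusted p = 0.537), and 7 other libraries left out in turn also ended its call. Ppfia3 lost its call without any 1 of the 8 cortical libraries or striatal females 2 or 3 (limma adjusted p up to 0.096). The Rims1 striatal libraries held 25.4 to 40.3 scaled clusters (median 28.2) and its cortical ones 26.9 to 36.6 (median 31.7), a change of −0.12 ± 0.10 (SE, limma adjusted p = 0.290) that did not pass. With all listed clusters, enriched or not, Rims1 stood at −0.80 (limma adjusted p = 4.39e-07) and was called. Scaled by the total of each library in place of the size factors, Rims1 stood at 0.28 (limma adjusted p = 0.114), and Rims2 (−0.25), Bsn (−0.20), Pclo (−0.06) and Ppfia3 (−1.08) were no longer called (limma adjusted p from 0.0544 to 0.807).

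For m6A the regional picture was narrower. In NT mice 18.5% of 9014 genes were called (9.01% lower, 9.47% higher), and of the 7 members tested 4 fell in striatum: Rims1 (−0.70 ± 0.15, SE, limma adjusted p = 0.00215), Rims2 (−0.44, limma adjusted p = 0.000388), Bsn (−0.50, limma adjusted p = 0.00109) and Erc1 (−0.33, limma adjusted p = 0.0137). Rims1 had 1.94 to 3.63 scaled m6A clusters in striatum and 4.11 to 6.98 in cortex, with no overlap. Pclo (−0.31, limma adjusted p = 0.151), Erc2 (−0.10, limma adjusted p = 0.671) and Ppfia3 (0.10, limma adjusted p = 0.723) did not pass, and Ppfia2 had too few clusters to test. Pclo was called when cortical NT male 1 was left out (−0.44, limma adjusted p = 0.00479). Bsn and Erc1 turned positive (0.42 and 0.17) when a cluster had to pass a p of 0.001 and a log2 fold above 3. These values follow the study's methods, which give no base of the log and also required reproducible peaks, a step not applied here. Markers of cortical excitatory neurons were lower in NT striatum, as 4 of 4 tested for TDP-43 and 7 of 7 for m6A. Oligodendrocyte markers were higher there, as 4 of 5 tested for TDP-43 (sums of 62.96 to 143 against 36.6 to 50.1) and 5 of 6 for m6A (84.3 to 111 against 55.9 to 81.9), and the part of both lists in these differences was not tested.

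TDP-43 in the R6/2 striatum did not move one way over these genes. Of 2220 genes, 14.3% were called (7.93% lower, 6.35% higher), and of the 7 members tested Pclo and Ppfia2 rose. For Rims1, NT libraries held 18.4 to 27.8 scaled enriched clusters (median 20.2) and R6/2 libraries 5.99 to 14.97 (median 12.3). The groups did not overlap, and the log2 difference of R6/2 from NT was −0.88 ± 0.16 (SE), a description for this gene. The listed clusters of Rims1 went the other way, 79 ± 22.8 in R6/2 against 44.8 ± 5.34 in NT (SD, n = 8). Counted with all of them, the difference was 0.46 on the log2 scale. Those in introns numbered 397 over the R6/2 and 125 over the NT libraries, and those in coding sequence 215 and 212. Over all genes, introns held 34.45% of listed clusters in R6/2 and 20.4% in NT striatum.

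Pclo, the Piccolo gene, had 12.6 to 36.8 scaled clusters in NT (median 27.4) and 17.97 to 90.9 in R6/2 (median 55.1), with 7 of 8 R6/2 libraries above the NT mean. It rose by 0.85 ± 0.26 on the log2 scale (SE, limma adjusted p = 0.0314). With the intronic share of each library as a covariate the difference was 0.16 (limma adjusted p = 0.746), without the 5 R6/2 libraries of high intronic share 0.32 (limma adjusted p = 0.573), and with all listed clusters 0.02 (limma adjusted p = 0.904). The call was lost without any 1 of 8 libraries, NT males 1 and 2, NT females 1 and 2, R6/2 male 4 and R6/2 females 1, 2 and 3 (limma adjusted p up to 0.0684). The 29 striatal Pclo sites were all coding, and 20 were enriched in more R6/2 than NT libraries against 3 in fewer. Over all genes, 4309 of 18551 striatal sites were enriched in more R6/2 libraries and 9563 in fewer.

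Ppfia2, a liprin-alpha, was sparse: 0 to 3.55 scaled clusters in NT (median 1.27) and 1.59 to 5.41 in R6/2 (median 3.87). All 8 R6/2 libraries lay above the NT mean, the groups overlapped, and the gene rose by 1.51 ± 0.41 (SE, limma adjusted p = 0.0190). It stayed called with any one library left out (highest limma adjusted p = 0.0411), but not with the intronic share as a covariate (1.97, limma adjusted p = 0.0632) nor without the libraries of high intronic share (2.15, limma adjusted p = 0.171).

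The other members did not pass in striatum. Bsn, at 12.6 to 30.6 scaled clusters in NT (median 26.2) and 8.12 to 25.5 in R6/2 (median 18.2), had a change of −0.57 ± 0.24 (SE, limma adjusted p = 0.138). Of its 25 sites, 19 were enriched in fewer R6/2 than NT libraries, beside 9563 of 18551 over all genes. Bsn was called without NT male 1 (−0.73, limma adjusted p = 0.0244) and in females alone (−1.06, limma adjusted p = 0.0162), while males alone gave −0.08 (limma adjusted p = 0.975). The sign turned with the intronic share as a covariate (0.32, limma adjusted p = 0.368) and with the 5 libraries of high intronic share left out (0.26, limma adjusted p = 0.477). Ppfia3 had a change of −0.08 ± 0.59 (SE, limma adjusted p = 0.942), Rims2 0.19 (limma adjusted p = 0.426), Erc1 0.20 (limma adjusted p = 0.838) and Erc2 0.37 (limma adjusted p = 0.354).

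In R6/2 cortex, 7.53% of 3733 genes were called for TDP-43 (5.97% lower, 1.55% higher), and of the 7 members tested Rims2 fell. It had 19.6 to 27.3 scaled clusters in NT (median 23.8) and 14.1 to 21.5 in R6/2 (median 18.2). All 8 R6/2 libraries lay below the NT mean, with a change of −0.38 ± 0.10 (SE, limma adjusted p = 0.0270). The call was lost with the intronic share as a covariate (−0.26, limma adjusted p = 0.264), with touching clusters joined (−0.41, limma adjusted p = 0.0808), without the filter on low values (limma adjusted p = 0.0539), with the replicate number as a block (limma adjusted p = 0.0731), in males or females alone (limma adjusted p = 0.332 and 0.235) and without any 1 of NT male 1, NT females 1, 2 and 4 and R6/2 female 4 (limma adjusted p up to 0.0581). With all listed clusters the Rims2 value was 0.03 (limma adjusted p = 0.873). Rims1 had 29.3 to 45.9 scaled clusters in R6/2 (median 36.0) and 31.1 to 45.4 in NT (median 38.7), overlapping groups with a log2 difference of −0.07 ± 0.11 (SE).

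Bsn (0.08, limma adjusted p = 0.756), Pclo (0.19, limma adjusted p = 0.519), Erc1 (−0.02, limma adjusted p = 0.972), Erc2 (−0.29, limma adjusted p = 0.391), Ppfia2 (−0.29, limma adjusted p = 0.394) and Ppfia3 (−0.13, limma adjusted p = 0.478) did not pass in cortex. The difference of the R6/2 change between striatum and cortex was tested in its own model, in which 0.0691% of 2896 genes were called, and 0 of the 7 members, of which Rims2, Bsn, Pclo, Erc2 and Ppfia2 had an unadjusted p under 0.05 by limma. The lowest adjusted p were those of Ppfia2 (1.99 ± 0.48 higher in striatum, SE, limma adjusted p = 0.0817) and Rims2 (0.65 ± 0.19, SE, limma adjusted p = 0.118). Differences of the R6/2 change between males and females were called for 0% of genes in either region, while 189 and 212 genes had an unadjusted p under 0.05 by limma in striatum and cortex.

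Site by site, 0% of TDP-43 sites were called by presence in either region, while 1105 striatal and 1577 cortical sites over all genes had an unadjusted exact permutation p under 0.05. Among the 7 tested members these were 1 site of Rims2, 2 of Bsn and 4 of Pclo in striatum, and 2 of Rims2, 3 of Bsn, 2 of Ppfia2 and 2 of Ppfia3 in cortex. A Rims2 coding site at chr15:39452227-39452318 was enriched in 1 R6/2 and 7 NT cortical libraries (exact permutation p = 0.0102, adjusted 0.901). In striatum the overlapping site at chr15:39452264-39452323 was enriched in 0 and 5 (exact permutation p = 0.0306, adjusted 0.770). A Ppfia2 coding site at chr10:106893468-106893514 was enriched in 0 R6/2 and 6 NT cortical libraries (exact permutation p = 0.0102, adjusted 0.901), and a Pclo coding site at chr5:14539530-14539613 in 5 R6/2 and 0 NT striatal ones (exact permutation p = 0.0306, adjusted 0.770).

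Counting clusters says how many stretches passed a threshold, and not how strongly they were bound. The log2 fold of IP over input was therefore also followed at each site where all 16 libraries of a comparison list a cluster, and averaged per gene with at least 3 such sites. This measure was chosen after the counts had been seen. In cortex it was called lower in R6/2 for Bsn and Ppfia3. It was lower for Rims1 as well, which is a description with no test.

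The plot of mean site folds by library shows this for Rims1, Bsn and Ppfia3. Ppfia3 had mean site folds of 3.21 to 3.97 in NT cortex (median 3.65) and 2.30 to 3.59 in R6/2 (median 2.87), with 6 R6/2 libraries below the lowest NT one. It fell by 0.69 ± 0.17 (SE, limma adjusted p = 0.0255), at 18 of 18 sites. Bsn had 3.70 to 4.11 in NT (median 3.91) and 2.33 to 3.82 in R6/2 (median 3.38), with 7 R6/2 libraries below the lowest NT one, and fell by 0.61 ± 0.18 (SE, limma adjusted p = 0.0443), at 22 of 22 sites. By this measure 5.86% of 2732 genes were called in cortex, 5.53% as lower, and 69.5% of 22797 sites over all genes had a lower mean in R6/2.

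Neither call held throughout. With each library centred on its median, Bsn stood at −0.41 and was not called (limma adjusted p = 0.0665), and Ppfia3 stood at −0.49 (limma adjusted p = 0.0306). With the intronic share as a covariate, Bsn stood at −0.47 (limma adjusted p = 0.401) and Ppfia3 at −0.48 (limma adjusted p = 0.36). The replicate number as a block gave an adjusted p by limma of 0.109 and 0.0744. Leaving out 1 library raised it to at most 0.0894 for Bsn, whose call held only without NT male 2, NT female 3 or R6/2 females 2 or 3. For Ppfia3 the call was lost without R6/2 male 2 or NT female 4, at most 0.058.

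For Rims1, whose values are a description here, the cortical mean site folds were 3.10 to 3.88 in NT (median 3.57) and 2.03 to 3.67 in R6/2 (median 2.73). All 19 followed sites were lower in R6/2, with a mean difference of −0.78 ± 0.19 (SE), and −0.74 without the intronic site. The intronic site differed by −1.60, the coding site in the exon after it by −0.77 and the one before it by −0.59. A coding site near the 3′ end of the gene, chr1:22288618-22288638, differed by −1.56, close to the intronic one. The lower folds of R6/2 cortex thus ran along the whole of Rims1, from its 5′ untranslated region to its last coding exon.

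**Figure D2:**
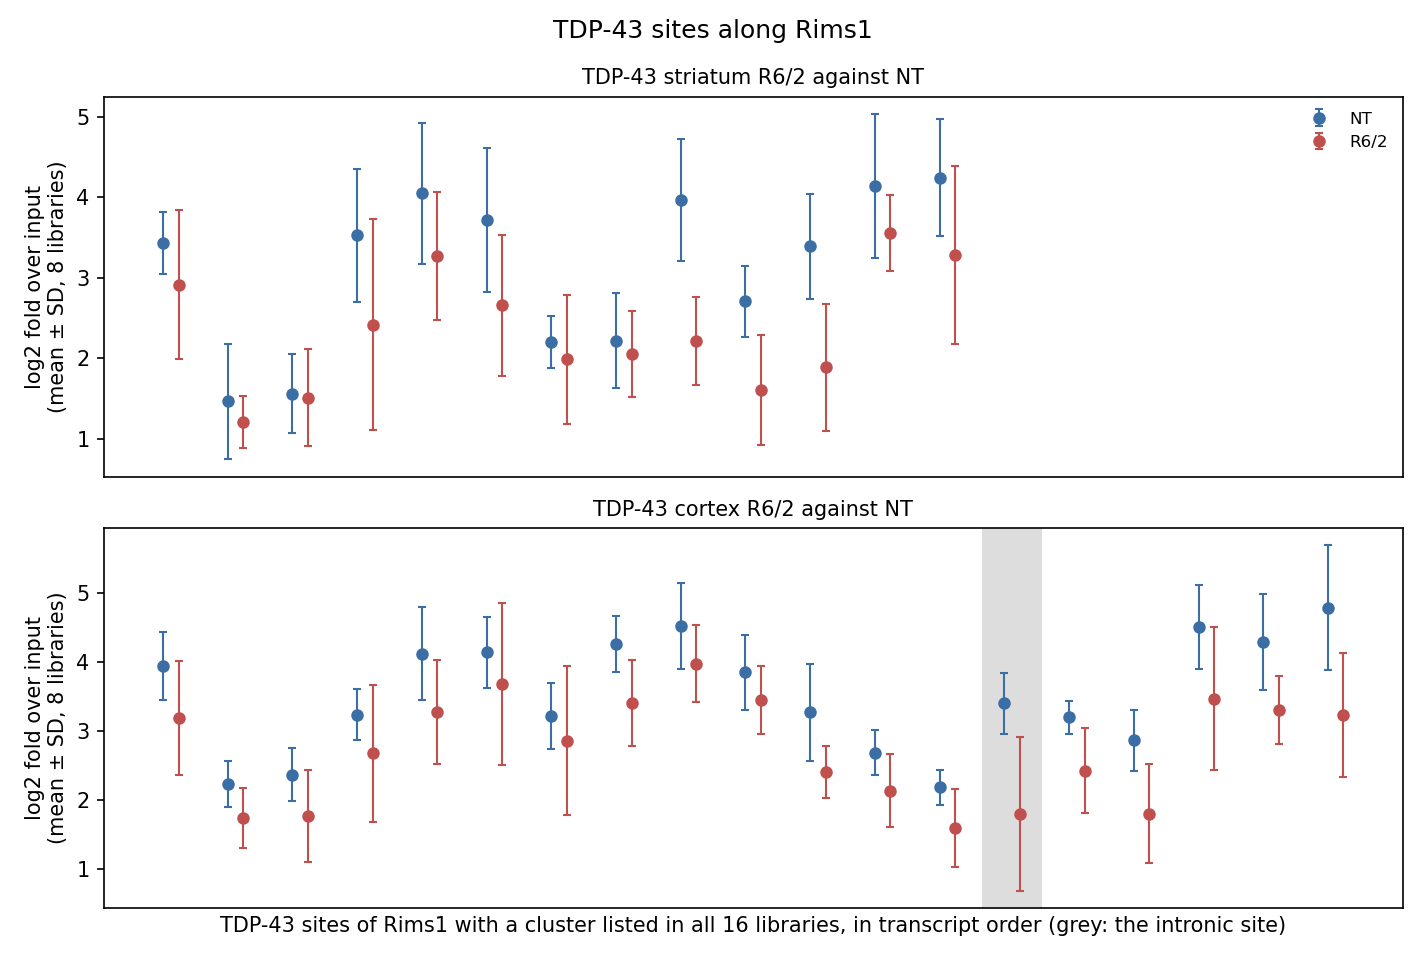
Mean log2 fold of IP over input (± SD, n = 8 libraries) at the Rims1 sites where every library lists a TDP-43 cluster, in transcript order, in striatum (13 sites) and cortex (19 sites, the intronic one shaded in grey), NT and R6/2. The R6/2 mean is below the NT mean at 13 of 13 and 19 of 19 sites.

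In striatum, Rims1 mean site folds were 2.56 to 3.57 in NT (median 3.21) and 1.88 to 2.96 in R6/2 (median 2.22). They differed by −0.77 ± 0.21 (SE), lower at 13 of 13 sites. The difference was −0.39 without the 5 libraries of high intronic share and −0.09 with the intronic share as a covariate. Of 1522 genes 3.09% were called in striatum (2.23% lower) and 0 of the 7 members, with an unadjusted p under 0.05 by limma for Ppfia3 alone: Ppfia3 stood at −0.61 ± 0.27 (SE, limma adjusted p = 0.222), Bsn at −0.43 (limma adjusted p = 0.391) and Pclo at 0.28 (limma adjusted p = 0.315). Bsn and Ppfia3 were lower at 13 of 13 and 12 of 12 sites, Pclo at 4 of 16, against 65.7% of the sites of all genes. Both turned positive with the intronic share as a covariate (Bsn 0.36, limma adjusted p = 0.366, and Ppfia3 0.38, limma adjusted p = 0.38) and with the 5 libraries of high intronic share left out (0.16, limma adjusted p = 0.869, and 0.28, limma adjusted p = 0.778). In females alone, Ppfia3 stood at −1.28 (limma adjusted p = 0.00845), in males alone at 0.02 (limma adjusted p = 0.998), and without NT male 1 at −0.81 (limma adjusted p = 0.0303). The difference between the sexes was not tested by this measure.

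**Figure D3:**
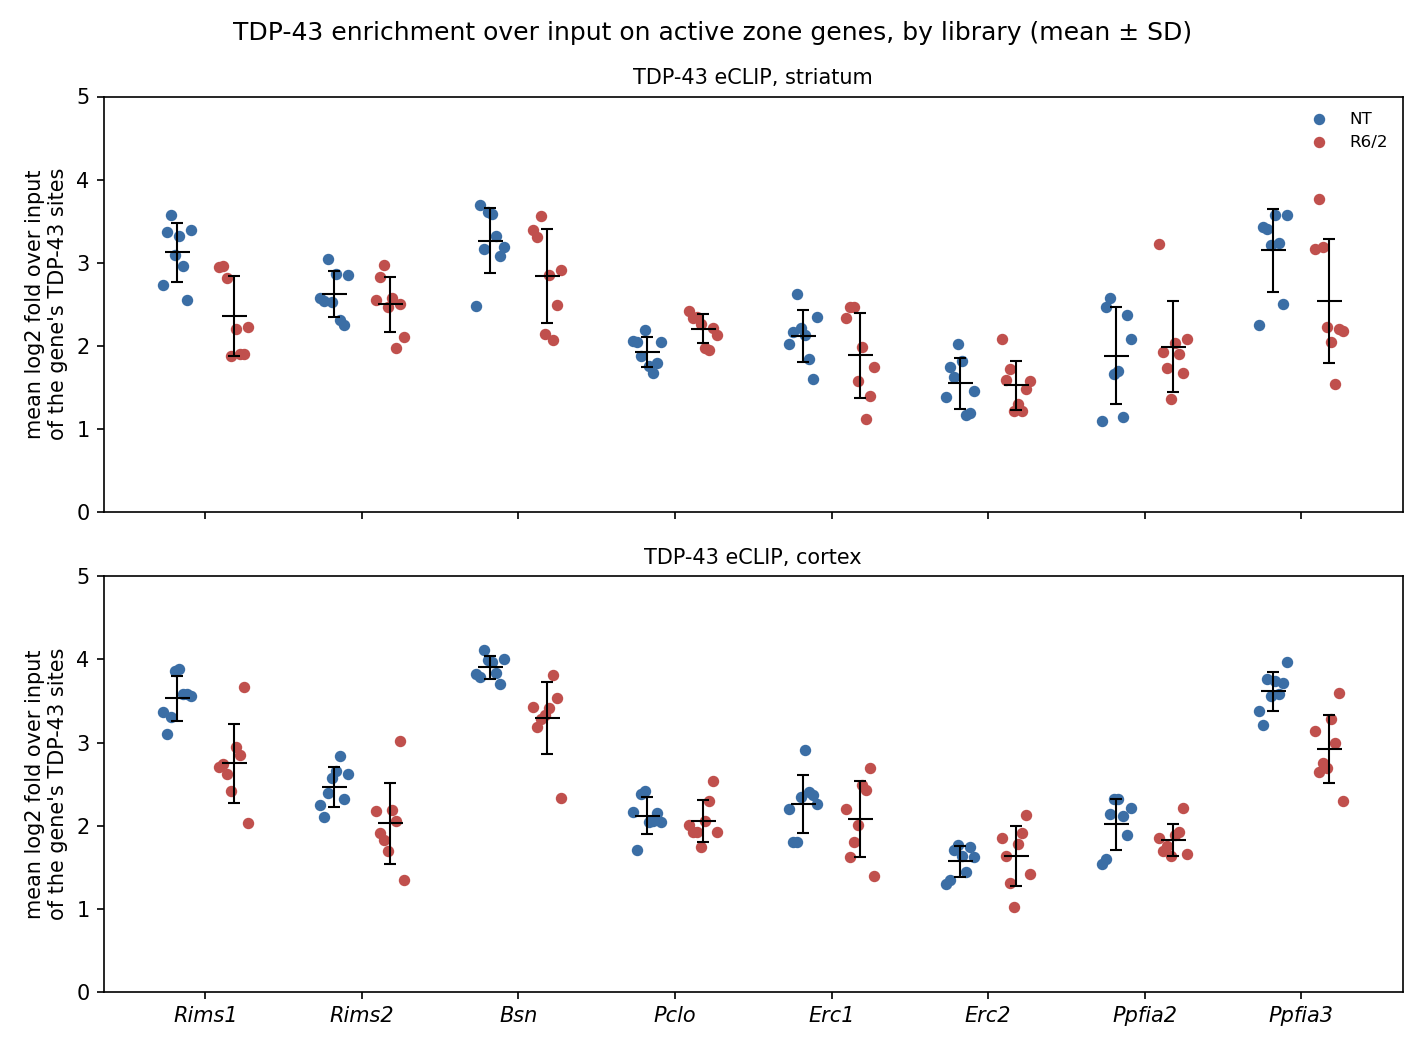
Mean log2 fold of IP over input of TDP-43 sites per gene, by library (points) with mean ± SD per genotype, in striatum and cortex. In cortex, 7 of 8 R6/2 libraries lie below the lowest NT library for Rims1 and Bsn and 6 of 8 for Ppfia3, while Pclo and Erc2 overlap.

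The remaining members did not pass by mean site fold in cortex. Rims2 stood at −0.44 ± 0.18 (SE, limma adjusted p = 0.134), lower at 12 of 13 sites, and at −0.57 (limma adjusted p = 0.0237) without R6/2 female 3. The others were Erc1 at −0.18 (limma adjusted p = 0.540), Ppfia2 at −0.19 (limma adjusted p = 0.418), Pclo at −0.07 (limma adjusted p = 0.793) and Erc2 at 0.06 (limma adjusted p = 0.825). Taken one by one, no TDP-43 site of the 7 tested members was called by fold in either region, against 0.95% of 12103 striatal sites (0.62% lower, 0.33% higher) and 0.368% of 22797 cortical sites over all genes.

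**Figure D4:**
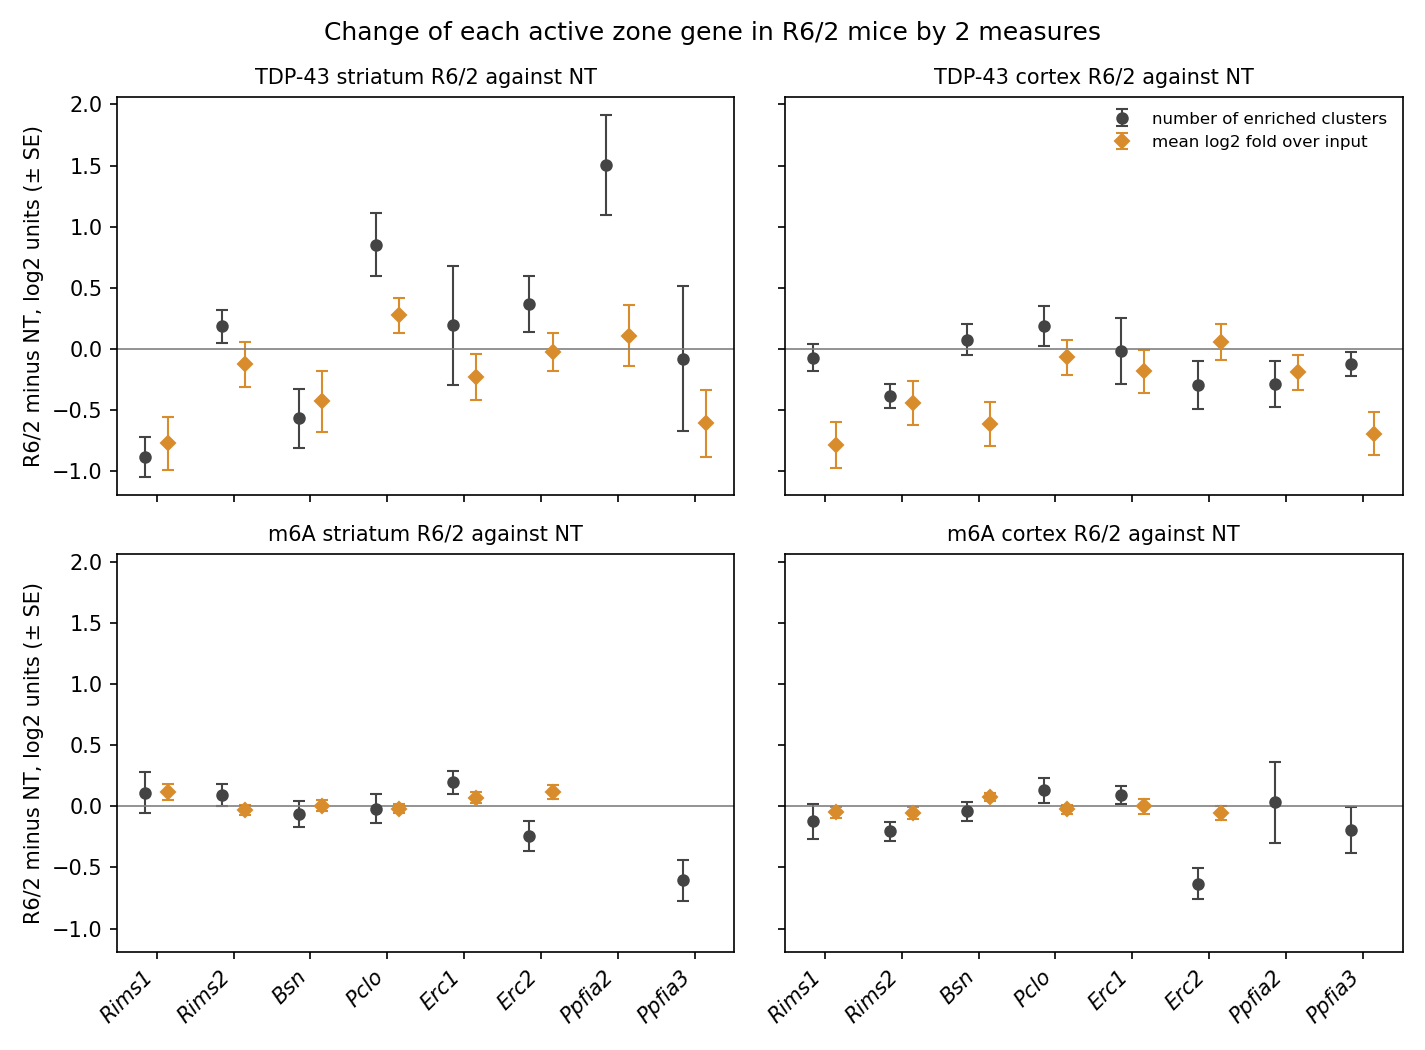
R6/2 minus NT (± SE) for each of the 8 genes by scaled enriched clusters and by mean site fold, both on the log2 scale, in 4 panels for TDP-43 and m6A in striatum and cortex. By clusters Rims1 lies at −0.88 and Pclo at 0.85 in the TDP-43 striatum, and by site fold Rims1 at −0.78, Ppfia3 at −0.69 and Bsn at −0.61 in the TDP-43 cortex; Rims1 values for TDP-43 are a description, and a gene has no point where it had too few clusters or sites to fit.

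The m6A sites of the 8 genes lay more often in coding sequence than those of all genes, at 71.9% of 96 sites in striatum and 75.3% of 89 in cortex, against 40.9% and 40.6%. Enriched m6A clusters of Bsn and Pclo lay mostly in coding sequence (83.4% and 91.6% in NT striatum), and those of Erc1 (67.2%), Erc2 (84.7%) and Ppfia3 (90.7%) in 3′ untranslated regions. GGACT on the transcribed strand was present in the middle 51 bases of 8.33% of striatal and 7.87% of cortical member sites, against 14.3% and 14.4% over all genes. The motif shares were not matched for class. Shown are sites of highest NT fold among those enriched in all 16 libraries that hold the motif somewhere, in capitals, in coding sequence for Rims1 and Bsn and in 3′ untranslated regions for Rims2 and Ppfia3.
Rims1 m6A, chr1:22534062-22534091: aagggcgctctcaGGACTacccggaccggc
Bsn m6A, chr9:108106928-108106957: agaatctgaggaGGACTcatatgacccccg
Rims2 m6A, chr15:39682323-39682352: gccgagatgtactGGACTctgaaaatcaaa
Ppfia3 m6A, chr7:45339904-45339933: ccgcctcccaaatGGACTgggcctggacca
In NT striatum the log2 fold was 1.18 ± 0.263 at the Rims1 site, 2.82 ± 0.262 at that of Rims2 and 1.72 ± 0.201 at that of Ppfia3 (SD, n = 8 each), and in NT cortex 2.39 ± 0.212 at that of Bsn. In R6/2 the same folds were 1.30 ± 0.210, 2.78 ± 0.199, 1.63 ± 0.125 and 2.38 ± 0.213, each within the NT spread.

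For m6A in the R6/2 cortex, Erc2 fell. It had 10.2 to 20.6 scaled enriched clusters in NT (median 14.1) and 6.22 to 10.9 in R6/2 (median 9.86), and all 8 R6/2 libraries lay below the NT mean. The change was −0.63 ± 0.13 (SE, limma adjusted p = 0.00298), among 6.36% of 8826 genes called (3.92% lower, 2.44% higher), and it was called with any library left out (limma adjusted p from 0.000644 to 0.00796). It was not called with touching clusters joined (−0.47, limma adjusted p = 0.0795), nor in males alone (−0.65, limma adjusted p = 0.103) or females alone (−0.61, limma adjusted p = 0.158).

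Part of it lay in 1 exon at chr14:27879474-27880339 (plus strand, 866 bases), annotated as 3′ untranslated sequence, in which 3 of the 14 Erc2 transcripts end, while 7 transcripts pass over it within an intron. The next exon of any transcript begins 18226 bases further on. This exon was looked at because its site at chr14:27879626-27879743 (118 bases) was enriched in 8 of 8 NT and 0 of 8 R6/2 cortical libraries, so its values are a description. That is the smallest exact permutation p the design allows (0.000408, two-sided, labels permuted within sex), and adjusted over all sites it was 0.387. Of 37888 m6A sites in cortex, 0.106% were separated in this way. The middle of the site, shown because it marks the short transcripts, holds no GGACT. It does hold GGACC, another motif of the DRACH type.
Erc2 m6A, short transcripts, chr14:27879670-27879699: aagggacctgtatcccgataggggatggcc

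At this site the −log10 p in NT cortex had a lowest, median and highest value of 10.8, 16.2 and 21.9, and the log2 fold was 2.74 ± 0.310 (SD, n = 8). No cluster was listed there in any of the 8 R6/2 cortical libraries. All 16 striatal libraries held an enriched one, with −log10 p of 29 to 70 in NT (median 39.6) and 17.8 to 36.7 in R6/2 (median 21.3), and so did all 6 libraries of the ASO experiment. At this site the striatal log2 fold was 2.61 ± 0.238 in NT and 2.88 ± 0.469 in R6/2 (SD, n = 8 each), so that the folds of the genotypes overlapped there.

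Over the whole exon, NT cortex had 1 to 5 enriched clusters per library (median 2) and R6/2 cortex 0 in each. In striatum the numbers were 5 to 12 (median 6) in NT and 2 to 5 (median 3.5) in R6/2, groups that met at 5. In the rest of Erc2, NT cortex had 8 to 15 enriched clusters (median 12, mean 11.8 ± 2.25) and R6/2 cortex 7 to 13 (median 9.5, mean 9.62 ± 1.85), a difference of −2.12 clusters between overlapping groups. In striatum the rest of the gene had 8.25 ± 2.12 in NT and 9.38 ± 2.39 in R6/2 (SD, n = 8 each). The rest of the gene was not tested, because the exon was set aside for its own difference. No TDP-43 library listed a cluster at the site. Loss of the short transcripts and loss of the mark on them cannot be told apart in these lists.

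**Figure D5:**
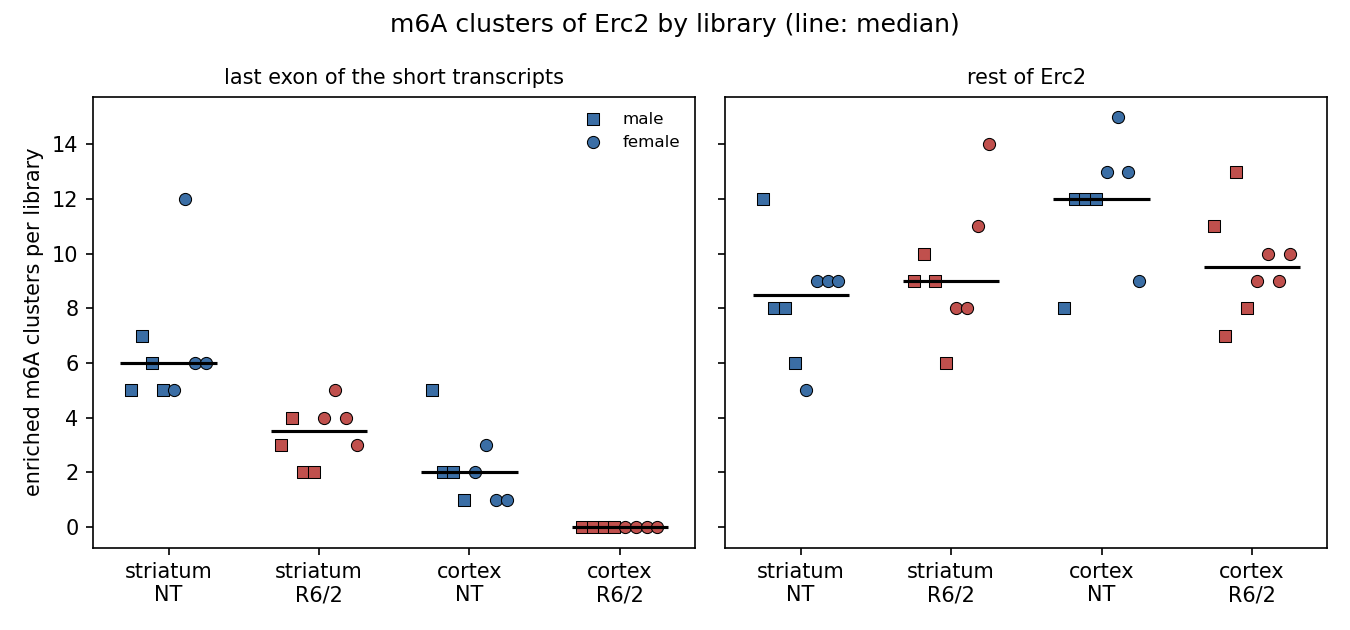
Enriched m6A clusters of Erc2 per library in the last exon of its short transcripts and in the rest of the gene, in striatum and cortex of NT and R6/2 mice (squares males, circles females, line median). In the exon the 8 R6/2 cortical libraries lie at 0 and the NT ones at 1 to 5; in the rest of the gene the groups overlap.

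In the R6/2 striatum 9.62% of 9468 genes were called for m6A (5.74% lower, 3.89% higher), and of 7 members tested Ppfia3 fell, from 3.25 to 7.52 scaled clusters in NT (median 5.28) to 1.07 to 6.00 in R6/2 (median 3.58). Its change was −0.61 ± 0.17 (SE, limma adjusted p = 0.0221), with 6 of 8 R6/2 libraries below the NT mean. The groups overlapped, and with touching clusters joined (−0.15, limma adjusted p = 0.644) or all listed clusters (−0.02, limma adjusted p = 0.938) it was not called. An Erc1 coding site at chr6:119824666-119824669 was enriched in 4 R6/2 and 0 NT libraries (exact permutation p = 0.0286, adjusted 1). It is only 4 bases long and lies beside a longer coding site of both genotypes, chr6:119824677-119824907. The log2 fold at that longer site was 2.79 ± 0.328 in NT and 2.58 ± 0.232 in R6/2 (SD, n = 8 each). The other values were 0.11 for Rims1 (limma adjusted p = 0.754), 0.09 for Rims2 (limma adjusted p = 0.616), −0.07 for Bsn (limma adjusted p = 0.778), −0.02 for Pclo (limma adjusted p = 0.950), 0.19 for Erc1 (limma adjusted p = 0.205) and −0.25 for Erc2 (limma adjusted p = 0.24).

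The remaining members in cortex did not pass for m6A. Rims1 stood at −0.12 (limma adjusted p = 0.685), Rims2 at −0.20 (limma adjusted p = 0.113), Bsn at −0.04 (limma adjusted p = 0.821), Pclo at 0.13 (limma adjusted p = 0.509), Erc1 at 0.09 (limma adjusted p = 0.492), Ppfia2 at 0.03 (limma adjusted p = 0.975) and Ppfia3 at −0.19 (limma adjusted p = 0.598). Rims1 had 3.10 to 6.14 scaled m6A clusters in R6/2 cortex (median 4.47) and 4.03 to 6.82 in NT (median 4.52). By mean site fold no member was called for m6A in striatum (1.71% of 4328 genes) or cortex (0.567% of 4060 genes), and Bsn in cortex alone had an unadjusted p under 0.05 by limma. The difference of the R6/2 change between regions was called for 0.254% of 9062 genes (0.188% lower, 0.0662% higher) and no member, with Erc2 at 0.40 ± 0.18 (SE, limma adjusted p = 0.594).

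With the ASO, 2 of the 7 members tested were called for m6A, a share close to the 30.6% of 9876 genes called (16.2% lower, 14.4% higher). Rims2 had 26.1, 26.9 and 29.4 scaled m6A clusters in the 3 PBS libraries and 20.1, 20.8 and 21.5 in the 3 ASO libraries, with no overlap, and fell by 0.39 ± 0.05 (SE, limma adjusted p = 0.00456). Erc2 had 23.5, 24.0 and 24.3 with PBS and 21.1, 21.5 and 21.9 with the ASO, and fell by 0.15 ± 0.03 (SE, limma adjusted p = 0.0132). With touching clusters joined both changes turned positive (0.30, limma adjusted p = 0.317, and 0.19, limma adjusted p = 0.526), and without ASO replicate 3 Erc2 had an adjusted p by limma of 0.0614. The listed intervals were the same in all libraries of a treatment, so the 3 libraries of a treatment share where their clusters lie. Rims2 had 37 listed clusters in each PBS and 28 in each ASO library, and Erc2 41 and 34. The SE and p of this comparison therefore leave out how the calling of clusters varies between libraries, and the difference in listed clusters cannot be told apart from the treatment.

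By mean site fold in the ASO experiment, 0.0222% of 4511 genes were called and no member, none of which had an unadjusted p under 0.05 by limma. Erc2 stood at −0.23 ± 0.11 (SE, limma adjusted p = 0.460) and Rims2 at −0.19 (limma adjusted p = 0.605). Rims1 had 5.76, 5.88 and 6.31 scaled clusters with PBS and 5.28, 5.37 and 6.25 with the ASO (−0.08 ± 0.09, SE, limma adjusted p = 0.521). Bsn stood at 0.06 (limma adjusted p = 0.0744), Pclo at 0.05 (limma adjusted p = 0.647), Erc1 at 0.02 (limma adjusted p = 0.785) and Ppfia3 at −0.02 (limma adjusted p = 0.928).

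Other presynaptic genes were taken from 3 lists: 29 further active zone genes, 21 of vesicle fusion and 15 of synaptic vesicles. For TDP-43 in R6/2 cortex, 5 of 21 tested active zone genes, 3 of 17 fusion genes and 1 of 9 vesicle genes fell and none rose, against 5.97% lower over all genes. In striatum 1 of 16, 2 of 14 and 1 of 9 fell and none rose, against 7.93% lower and 6.35% higher over all genes. The lists' median changes in cortex were −0.29, −0.06 and −0.03 on the log2 scale, beside −0.09 over all genes. Syt2, a fast calcium sensor of release, fell in cortex (−2.85, limma adjusted p = 0.000357) and striatum (−3.06, limma adjusted p = 0.000262). So did the vesicle SNARE Vamp1 (−1.17, limma adjusted p = 0.00369, and −1.30, limma adjusted p = 0.0149).

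For m6A, 3 of 26 further active zone genes and 3 of 14 fusion genes fell in R6/2 striatum, and 1 of 11 vesicle genes rose, Syn2 (1.53, limma adjusted p = 0.0139), a synapsin, against 5.74% lower and 3.89% higher over all genes. In cortex 2 of 25 and 2 of 15 fell and 0 of 10 vesicle genes passed, against 3.92% lower and 2.44% higher. Syt2 (−0.77, limma adjusted p = 6.47e-06), the priming regulator Cplx2 (−0.27, limma adjusted p = 0.0172) and the receptor phosphatase gene Ptprs (−0.62, limma adjusted p = 0.00646), whose protein binds liprins, were among those in striatum. With the ASO, 5 of 26 active zone genes fell and 3 rose, 6 of 20 fusion genes fell and 2 rose, and 1 of 12 vesicle genes fell and 2 rose, against 16.2% lower and 14.4% higher over all genes.

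The genes whose levels over the 8 group means of assay, region and genotype were most like those of Rims1, among 1763 genes, were Kcnma1 (Pearson r = 0.986), Nat8l (0.977) and Ncald (0.976). Of the 6 other members among these genes, which leave out Ppfia2, Bsn came nearest (0.967) and Pclo was farthest (0.510). These r values are over 8 means that share libraries, and are a description only.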

How the data were processed

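Per the labels and the study's methods, the authors made TDP-43 and m6A eCLIP libraries with commercial kits, called clusters with CLIPper and scored each IP cluster against its input on mm10; the aligner and annotation are not given in the sources used here. The deposited values are a −log10 p and a log2 fold of IP over input reads per cluster. Read depth behind a cluster is not given, so no counting interval was computed. Clusters were assigned to GENCODE vM21 genes by midpoint and strand. Libraries were grouped by assay, region, genotype, treatment and sex from their labels, which number mice within sex; whether libraries of the 2 assays or regions share mice is not stated.

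Scaled enriched clusters (−log10 p of 3 or more, divided by median-ratio size factors, 0.5 added) were tested in limma 3.58.1 (R 4.3.3; trend, two-sided) for genes with at least 2 enriched clusters in 50% of libraries, with sex as covariate except in the ASO experiment. An adjusted p (Benjamini-Hochberg over all genes tested) below 0.05 made a gene called. Site presence was tested by exact permutation within sex (4900 labelings), which cannot go below p = 0.000408 with 8 against 8 or 0.1 with 3 against 3. Folds used sites with a cluster listed in every library, and genes with at least 3 such sites. Python 3.11.15, pandas 2.3.3 and samtools 1.23.1 were also used. The limma and permutation steps were tested on simulated data.

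The members, the presynaptic lists and the marker lists were chosen with earlier results of these data known. All 8 members were named in every comparison, and at most 4 called genes of the presynaptic lists, those of lowest adjusted p; of other members, sites were named by the lowest p or for their sequence. Alternatives were all listed clusters, the study's thresholds (p of 0.001, a fold above 3 read as log2, without its reproducibility step), another pseudocount, no filter, scaling by totals, quantile normalization, the replicate block, each sex alone and each library left out. The intronic share was an alternative for the R6/2 comparisons. Added after the data were seen were touching clusters joined, the site folds with their alternatives and the Erc2 exon.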

Additional observations from a re-analysis of the deposited data

Results flagged for a closer look

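In 7 of 128 groups of member values, 1 library stood far from the others of its group by Dixon's ratio, where chance alone would flag about 1 in 20 groups (6.4). In striatal TDP-43, NT male 1, the library of lowest yield, held 27.8 scaled Rims1 clusters (others 18.4 to 22.7) and 2.52 of Erc2 (others 5.3 to 7.29). R6/2 female 4 had 17.7 scaled Erc2 clusters in striatum (others 4.9 to 9.98). The cortical library numbered R6/2 female 4 had 127 scaled Pclo clusters (others 50.4 to 73.7) and a mean site fold of 2.33 for Bsn (others 3.18 to 3.82). Ppfia2 had a mean site fold of 3.22 in striatal R6/2 male 1 (others 1.37 to 2.08). For m6A, Rims1 had a mean site fold of 1.4 in striatal R6/2 female 1 (others 0.701 to 1.02).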

How the results depend on the processing

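Of 1931 values of single genes under all alternatives, 1816 kept their direction where called and their side of the threshold, 95 lost and 12 gained a call, 6 turned sign and 2 moved; of these values, 1262 had 1 library left out, and among those 46 lost and 4 gained a call. No direction is claimed where neither value was called. The causes were not tested.

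The number of members called in the TDP-43 striatum was 2. It was 5 with all listed clusters, 1 scaled by totals, and 0 with the study's thresholds, in males alone, with the intronic share as a covariate and without libraries of 30% or more; leaving out 1 library gave 1 to 2. The 1 call in the TDP-43 cortex became 2 with the study's thresholds and 0 with all listed clusters, no filter, each sex alone, the intronic share or joined clusters (0 to 1 without 1 library). The 1 call for m6A in striatum became 0 with all listed clusters, and that in both regions became 0 with the study's thresholds, in each sex alone and with joined clusters. Some called genes had too few clusters for a fit with the study's thresholds, so their calls were not tested again. Among these were Ppfia3 (m6A striatum), Erc2 (m6A cortex and ASO), Ppfia2 (TDP-43 striatum), and Erc1, Erc2 and Ppfia2 (TDP-43 between NT regions). With the ASO, 2 calls became 0 with the study's thresholds and with joined clusters (1 to 2 without 1 library); all listed clusters gave no fit, since they do not vary within a treatment. Between NT regions, the 7 TDP-43 calls became 2 with the study's thresholds and 3 scaled by totals (5 to 7 without 1 library), and the 4 for m6A became 0 and, joined, 1 (4 to 5). No regional difference of the TDP-43 change was called; 1 was with 1 added before log2, without a filter, scaled by totals or by quantiles (0 to 1 without 1 library). By mean site fold, the 2 calls in the TDP-43 cortex became 1 with each library centred on its median, and 0 in each sex alone and with the intronic share (0 to 3 without 1 library); striatum had 0, and 1 in females alone (0 to 1 without 1 library). Single sites called by fold numbered 0 in the TDP-43 striatum, and 1 in females alone; in cortex they were 0 to 1 without 1 library.

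Changes that turned sign were Rims1 in the TDP-43 striatum (0.46) and Rims2 in the TDP-43 cortex (0.0303) with all listed clusters, Rims2 (0.30) and Erc2 (0.19) under the ASO with joined clusters, and Bsn (0.42) and Erc1 (0.17) in the m6A comparison of NT regions with the study's thresholds.

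Correlations of same-numbered libraries ran from −0.454 to 0.461, and at least 1 pair in every comparison was at or below 0.1. Between NT regions they were −0.108 to 0.282 for TDP-43 and 0.0224 to 0.0868 for m6A. Such values cannot decide whether same-numbered libraries come from the same mouse. With the replicate number as a block, 0 members were called by clusters and 0 by mean site fold in the TDP-43 cortex, and 1 under the ASO, and the other counts of calls stayed within 1.5 times. Few clusters lie behind the striatal TDP-43 values of Erc1 and Ppfia2, whose medians in NT were 2 and 1.5 enriched clusters per library.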
